A study of Mus musculus with 16 samples.

Results

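The genes described here encode 8 amino acid transporters of the hepatocyte plasma membrane. They are Slc7a2, Slc1a2, Slc3a1, Slc3a2, Slc38a2, Slc38a3, Slc38a4 and Slc43a1, and they were chosen by gene symbol. Each had exactly 1 probe set paired with its symbol and no other, so all 8 were measured, of 19935 genes in all. Liver RNA came from 16 male mice on a mixed Sv129/C57Bl/6 background, hybridised to 1 Affymetrix whole-transcript array per mouse. The 4 groups were wild-type mice that were fed (4 mice), wild-type mice fasted for 24 h (5 mice), PPARβ/δ knockout mice that were fed (4 mice) and PPARβ/δ knockout mice fasted for 24 h (3 mice). PPARβ/δ is a nuclear receptor for fatty acids, encoded by Ppard. The mice's age and the part of Ppard that was deleted are both not given in the sources used here. As for replication, the labels call the replicates biological. Levels are log2 of the deposited intensity, and differences are log2 differences between group means each with the standard error that limma fitted.

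Amino acids reach the liver through the portal vein after a meal and from muscle protein during a fast, and hepatocytes take them up to make protein, glucose, glutathione and urea. Uptake is divided among carriers with different substrates. Sodium-coupled carriers of the SLC38 family move small neutral amino acids, among them alanine and glutamine. Other families carry cationic amino acids (SLC7), glutamate and aspartate (SLC1) and large neutral amino acids (SLC43). SLC3 proteins are not carriers themselves but heavy chains, which bind a light chain of the SLC7 family and bring it to the cell surface.

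The labelled tissue showed its defining markers: all 11 measured hepatocyte markers were above the limit under which genes were taken as dim (mean log2 of 2.79, the 40th percentile of all genes), and their summed intensity was 33823 to 37918 over the 16 mice. All 8 transporter genes were above that limit too. Ppard had log2 levels of 4.78 to 5.50 in fed wild-type mice, 4.40 to 4.67 in wild-type fasted, 4.45 to 5.00 in knockout fed and 4.36 to 4.58 in fasted knockout mice, and its genotype difference did not pass the test in either feeding state. Its fasting difference was -0.54 ± 0.14 in wild-type (limma adjusted p = 0.025) and -0.23 ± 0.16 in knockout mice (limma adjusted p = 0.578). Some mice stood apart. The summed intensity of 25 acute phase genes was 47576, 33692 and 28485 in fed knockout mice 4, 1 and 3 and 21544 to 26680 in the other 13 mice. That of 15 pancreas acinar markers, of which 6 were above the dim limit, was 563 in fasted wild-type mouse 5 and 95.9 to 137 in the others. The sum of 15 Kupffer cell and macrophage markers was 1450 to 1590 in fed knockout mice, above the 933 to 1100 of fed wild-type mice, and 689 to 1140 in fasted wild-type and 1110 to 1270 in fasted knockout mice (14 of the 15 above the dim limit). In whole liver, more cells of a type and more RNA per cell cannot be told apart.

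A fast of 24 h changed 3 of the 8 transporters in wild-type liver: Slc7a2 and Slc1a2 rose and Slc3a1 fell. In knockout liver it changed 2 of the 8, Slc7a2 (up) and Slc3a1 (down). At an unadjusted p under 0.05 there were 4 and 3 of the 8, beside 22.6% and 15.3% of all genes. A gene counted as changed at a limma p under 0.05 after Benjamini-Hochberg adjustment over all 19935 genes. By that rule 9.22% of all genes changed with fasting in wild-type mice (3.30% up and 5.92% down) and 3.67% in knockout mice (1.87% up and 1.80% down). The median change of the 8 genes was 0.16 in wild-type and -0.00 in knockout mice, beside 0.03 and -0.02 over all genes.

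**Figure D1:**
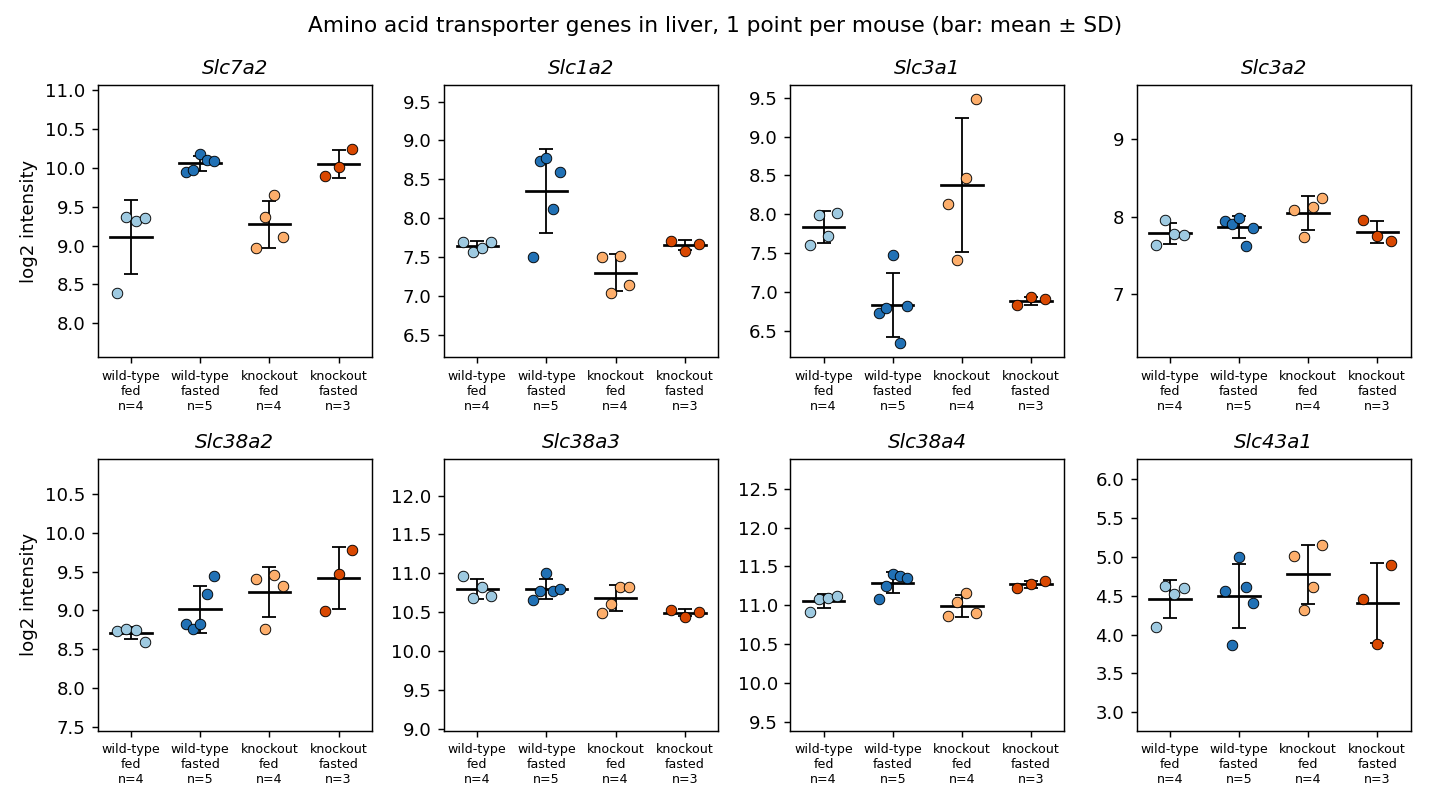
Log2 intensity (vertical axis, the same span in every panel) of the 8 transporter genes, 1 point per mouse, by genotype and feeding. Lines and bars are the group mean and SD; every fasted mouse lies above every fed mouse of its genotype for Slc7a2 and below it for Slc3a1.

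Slc7a2 encodes CAT2, a carrier of arginine, lysine and ornithine whose liver form has a low affinity. Its log2 level was 8.39, 9.37, 9.31 and 9.36 in fed wild-type mice and 9.94, 9.98, 10.18, 10.10 and 10.08 in fasted wild-type mice. Every fasted mouse lay above every fed one, and fed mouse 1 lay well below the other fed mice. The rise was 0.95 ± 0.18, a 1.93-fold change (adjusted p = 0.00235), and without fed mouse 1 it was 0.71 (adjusted p = 0.00243). Knockout fed mice had 8.97, 9.37, 9.65 and 9.11 and fasted knockout mice 9.90, 10.01 and 10.24, again without overlap. The rise in knockout mice was 0.77 ± 0.20, or 1.71-fold (adjusted p = 0.0405). Both fasted groups reached nearly the same mean, 10.06 ± 0.10 (SD, n = 5) in wild-type and 10.05 ± 0.18 (SD, n = 3) in knockout mice. The call in wild-type mice held when any 1 of the 16 mice was left out. That in knockout mice was lost, at changes of 0.67 to 0.85 and adjusted p of 0.0532 to 0.181, without fed knockout mouse 1, 2 or 4, any 1 of the 3 fasted knockout mice, or fasted wild-type mouse 2 or 4; without fed knockout mice 1 and 4 together it was 0.54 (adjusted p = 0.356).

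Of 11394 named genes above the dim limit, the gene whose level followed Slc7a2 most closely over the 16 mice was Pck1, the cytosolic phosphoenolpyruvate carboxykinase of gluconeogenesis (Pearson r = 0.97). Glt1d1, a glycosyltransferase-domain gene (r = 0.96), and Cln8 (r = 0.93) came next. These values include the shared difference between fed and fasted mice. After each group's mean was taken off they were 0.93, 0.89 and 0.77. Pck1 was also lowest in fed wild-type mouse 1, at 9.95 against 10.65 to 10.79 in the other fed wild-type mice.

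Slc1a2 encodes the glutamate and aspartate carrier GLT-1, which in liver is found in the hepatocytes around the central vein, beside glutamine synthetase (Glul). Wild-type fed mice had levels of 7.69, 7.57, 7.62 and 7.69, a narrow range. Wild-type fasted mice had 7.50, 8.74, 8.78, 8.12 and 8.60, so 4 of the 5 lay above every fed mouse and mouse 1 lay below them all. The rise was 0.71 ± 0.20, or 1.63-fold (adjusted p = 0.0324), and it was 0.92 without fasted mouse 1 (adjusted p = 0.000466). Knockout fed mice had 7.50, 7.04, 7.51 and 7.14 and fasted knockout mice 7.71, 7.58 and 7.67. The groups did not overlap, but the fasting difference of 0.36 ± 0.23 in knockout mice did not pass the test (adjusted p = 0.511; 95% interval -0.12 to 0.83). In wild-type mice the call was lost without any 1 of the 4 fed mice or without fasted mouse 2, 3 or 5, at changes of 0.60 to 0.72 and adjusted p of 0.0605 to 0.0829, and when only these groups were fitted (adjusted p = 0.0724).

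Mice differed in their pericentral markers as well. The summed intensity of 12 measured pericentral hepatocyte genes was 9404 in fasted wild-type mouse 1, the lowest of all mice, and 11374 to 12712 in the other 4 fasted wild-type mice. Knockout fasted mice had sums of 11753 to 12096, within that range, while their Slc1a2 levels, at 7.58 to 7.71, lay below the 8.12 to 8.78 of those 4 mice. All 12 markers were above the dim limit, and their part in the Slc1a2 values was not tested. Glul itself was 10.06, 10.33, 10.29, 10.26 and 9.92 in fasted wild-type mice 1 to 5, and its fasting change did not pass (-0.09, adjusted p = 0.591). The markers did not move as one in mouse 1: within its group Cyp2c29 (8.94, against 10.17 to 10.72) and Cyp1a2 (9.11, against 9.81 to 10.40) were lowest there, while Axin2 was highest (4.21, against 3.68 to 4.02) and Cyp2e1, at 12.03, lay inside the range of the others. Oat, also of this list, was lowest in mouse 1 as well (10.16, against 10.46 to 10.95). In fasted knockout mice Oat was at 10.48, 10.16 and 10.48. The fasting change of Oat was 0.94 in wild-type (adjusted p = 0.000332) and 0.41 in knockout mice (adjusted p = 0.189). The genes most like Slc1a2 over the 16 mice were the nuclease Dnase2b (r = 0.93), the gluconeogenic fructose bisphosphatase Fbp1 (r = 0.92) and Zfp276 (r = 0.91), or 0.90, 0.81 and 0.82 with the group means taken off.

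**Figure D2:**
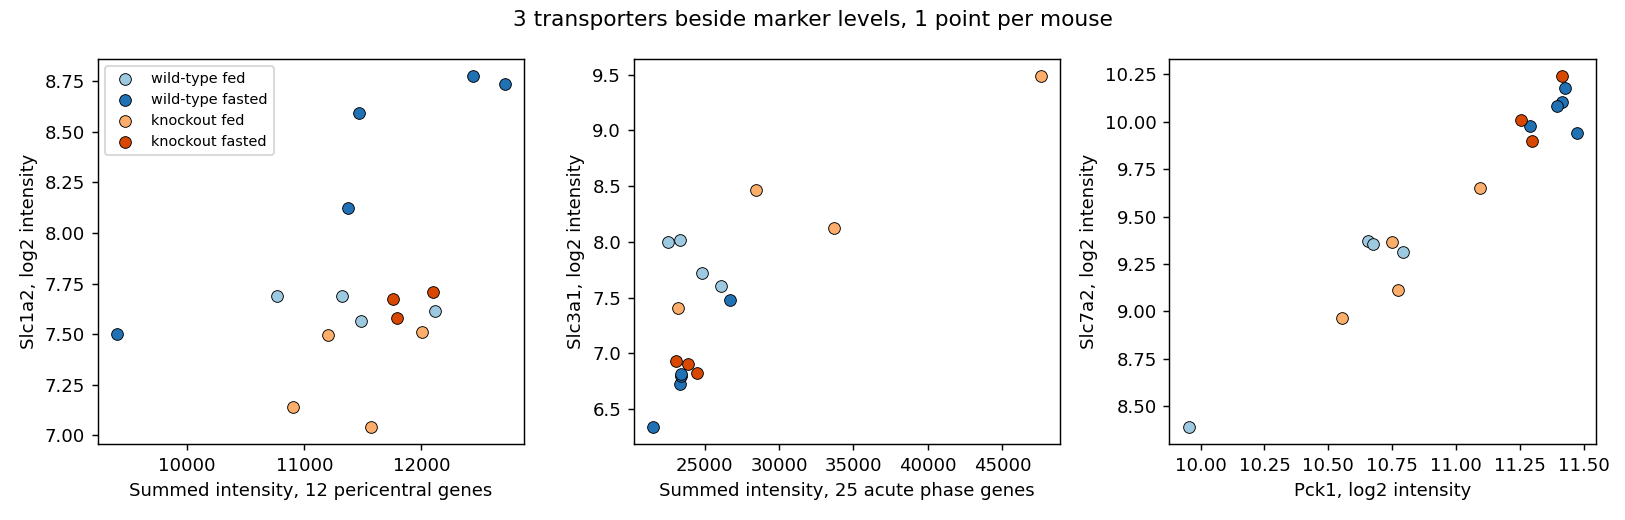
Log2 intensity of Slc1a2, Slc3a1 and Slc7a2 (vertical axes) against the summed intensity of 12 pericentral genes, the summed intensity of 25 acute phase genes and the log2 intensity of Pck1 (horizontal axes), 1 point per mouse. Wild-type fasted mouse 1 is lowest on the pericentral axis (9404), fed knockout mouse 4 is highest on the acute phase axis (47576), and fed wild-type mouse 1 is lowest for both Pck1 and Slc7a2.

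Slc3a1 encodes rBAT, the heavy chain that pairs with the light chain b0,+AT (Slc7a9) for cystine and cationic amino acids, and is best known from kidney. Levels were 7.61, 8.0, 7.72 and 8.02 in fed wild-type mice and 6.73, 6.80, 7.48, 6.34 and 6.82 in fasted wild-type mice. All fasted mice lay below all fed mice, and fasted mouse 3 came nearest to them. The fall was -1.0 ± 0.29, a 2.00-fold change (adjusted p = 0.0391). Knockout fed mice spread widely, at 8.13, 7.41, 8.46 and 9.49, and fasted knockout mice lay close together below them at 6.83, 6.93 and 6.90. The fall in knockout mice was -1.48 ± 0.33, or 2.80-fold (adjusted p = 0.0183). It was the largest fitted change of the 8 genes.

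The order of the fed knockout mice in Slc3a1 (4, 3, 1, 2) was close to their order in summed acute phase intensity (4, 1, 3, 2), and the part of the acute phase in these values was not tested. Without fed knockout mice 1 and 4 the fall in knockout mice was -1.05 (adjusted p = 0.1). It was -1.51 to -1.45 without any 1 of the 3 fasted knockout mice, also not called (adjusted p = 0.0658 to 0.0675). In wild-type mice the fall ranged from -1.08 to -0.88 and was not called (adjusted p = 0.051 to 0.1) without any 1 of 10 mice, namely the 4 fed wild-type mice, fasted wild-type mice 1, 2, 4 and 5, and fasted knockout mice 2 and 3. The fit with an intensity trend and robust variance also ended the wild-type call (adjusted p = 0.0815). The genes most like Slc3a1 over the 16 mice were Ganab, a glucosidase subunit of glycoprotein folding (r = 0.94), the non-muscle myosin Myh9 (r = 0.94) and Prg4 (r = 0.93), or 0.85, 0.79 and 0.87 with the group means taken off. The kidney tubule markers, of which 2 of 10 were above the dim limit, summed to 58.8 to 73.6 in all mice. Slc7a9 was dim, with a mean of 2.23, and did not change in any contrast.

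Promoter sequences from RefSeq (GRCm38.p6) are shown for Slc3a1 and Slc1a2, which changed in opposite directions; the table held windows for 6 of the 8 genes. Each is the 250 bases before a RefSeq start site, 5′ to 3′ on the gene's strand, at chr17:85028097-85028346 and chr2:102706188-102706437, both on the plus strand. Capitals mark the TATA box letters TATAAA on either strand.
Slc3a1: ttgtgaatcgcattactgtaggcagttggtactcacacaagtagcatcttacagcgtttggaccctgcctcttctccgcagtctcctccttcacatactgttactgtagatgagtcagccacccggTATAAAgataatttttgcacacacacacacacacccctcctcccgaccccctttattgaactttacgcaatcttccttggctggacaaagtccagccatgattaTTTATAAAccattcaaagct
Slc1a2: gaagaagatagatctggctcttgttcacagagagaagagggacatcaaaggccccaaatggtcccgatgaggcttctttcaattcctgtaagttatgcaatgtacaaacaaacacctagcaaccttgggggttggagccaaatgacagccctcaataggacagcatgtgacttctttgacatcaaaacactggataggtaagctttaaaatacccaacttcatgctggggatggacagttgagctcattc
The Slc3a1 window held the TATA box letters at -124 to -119, and again close to the start at -18 to -13, where a match on the other strand (-20 to -15) overlaps it. They were also in windows of Slc43a1 and Slc38a4, whose fasting differences did not pass, so 3 of the 6 genes held them in at least 1 window. Of all 32851 windows of this length 12.4% held them, which is a share of windows and not of genes. Other motifs were searched on both strands: the amino acid response element core TGATGNAA (3.45% of all windows), a FOXO site TGTTTAC (3.17%), the glucocorticoid receptor palindrome (0.387%) and the PPAR and RXR direct repeat with 1 spacer base (0.0335%). None of their letters was found in the 8 windows of the 6 genes, which says nothing about sites elsewhere.

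Slc3a2 encodes 4F2hc (CD98), the heavy chain of several light chains for large neutral and cationic amino acids and for cystine. Log2 levels were 7.63, 7.95, 7.78 and 7.77 in wild-type fed, 7.94, 7.90, 7.98, 7.62 and 7.86 in wild-type fasted, 8.08, 7.73, 8.12 and 8.24 in knockout fed and 7.96, 7.75 and 7.68 in fasted knockout mice. The groups overlapped in every comparison. The fasting difference was 0.08 ± 0.10 in wild-type mice (95% interval -0.14 to 0.30) and -0.25 ± 0.12 in knockout mice (95% interval -0.50 to 0.00), and neither passed. Of its light chains, the large neutral carrier Slc7a5 had fasting differences of 0.32 ± 0.12 in wild-type (adjusted p = 0.113) and 0.16 ± 0.14 in knockout mice (adjusted p = 0.674). Slc7a7, the light chain y+LAT1 for cationic amino acids, fell by 0.32 in wild-type (adjusted p = 0.0428) and 0.43 in knockout mice (adjusted p = 0.0317). Its mean level was low, at 3.48, and its wild-type groups overlapped. Leaving out single mice ended the wild-type call in 10 of 16 fits and the knockout call in 5. Neither call held without fed knockout mice 1 and 4 (adjusted p = 0.0575 and 0.135).

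The SLC38 carriers did not pass the test in either genotype. Slc38a4 (SNAT4, an alanine carrier abundant in liver) came nearest. Its levels were 10.92, 11.09, 11.10 and 11.12 in fed wild-type mice, 11.08, 11.25, 11.40, 11.37 and 11.35 in fasted wild-type mice, 10.86, 11.04, 11.16 and 10.90 in fed knockout mice and 11.23, 11.27 and 11.31 in fasted knockout mice. In wild-type mice 4 of 5 fasted mice lay above all fed mice, and in knockout mice all 3 did. The differences were small, 0.24 ± 0.08 in wild-type (adjusted p = 0.0869) and 0.28 ± 0.09 in knockout mice (adjusted p = 0.123). They passed in single alternatives, at 0.29 in wild-type mice without fasted mouse 1 (adjusted p = 0.031) and at 0.35 in knockout mice after quantile normalization (adjusted p = 0.0456). Without fed knockout mice 1 and 4 the knockout difference was 0.17 (adjusted p = 0.597). The wild-type difference was 0.19 without fed wild-type mouse 1 (adjusted p = 0.231).

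Slc38a2 (SNAT2, the carrier of system A that amino acid shortage induces in many cells) had 8.73, 8.76, 8.74 and 8.59 in fed wild-type mice. Wild-type fasted mice had 8.82, 8.76, 8.82, 9.21 and 9.45, of which mice 4 and 5 stood above the rest. Its fasting difference was 0.30 ± 0.17 in wild-type mice (adjusted p = 0.31) and 0.20 without mouse 5 (adjusted p = 0.577), the mouse with the high pancreas markers, whose part was not tested. Knockout fed mice had 9.41, 8.76, 9.45 and 9.31 and fasted knockout mice 8.99, 9.47 and 9.78, with a difference of 0.18 ± 0.20 (adjusted p = 0.746).

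Slc38a3 (SNAT3, the glutamine and histidine carrier of system N) was the steadiest of the SLC38 genes under fasting in wild-type mice. Levels were 10.96, 10.68, 10.83 and 10.71 in wild-type fed and 10.65, 10.77, 11.01, 10.77 and 10.80 in fasted wild-type mice, a difference of 0.01 ± 0.09 (95% interval -0.18 to 0.20). Knockout fed mice had 10.49, 10.60, 10.83 and 10.82 and fasted knockout mice 10.53, 10.44 and 10.50. That difference was -0.19 ± 0.10 (adjusted p = 0.404).

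Slc43a1 encodes LAT3, a sodium-independent carrier of branched-chain amino acids and phenylalanine. Its levels were 4.10, 4.63, 4.53 and 4.60 in wild-type fed, 4.57, 3.87, 5.00, 4.62 and 4.40 in wild-type fasted, 5.01, 4.32, 4.62 and 5.16 in knockout fed and 4.46, 3.87 and 4.89 in fasted knockout mice. The groups overlapped throughout. The fasting difference was 0.03 ± 0.23 in wild-type mice (95% interval -0.45 to 0.51) and -0.37 ± 0.26 in knockout mice (95% interval -0.92 to 0.18). Wild-type fasted mouse 5, with the high pancreas markers, was at 4.40, inside the range of its group.

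**Figure D3:**
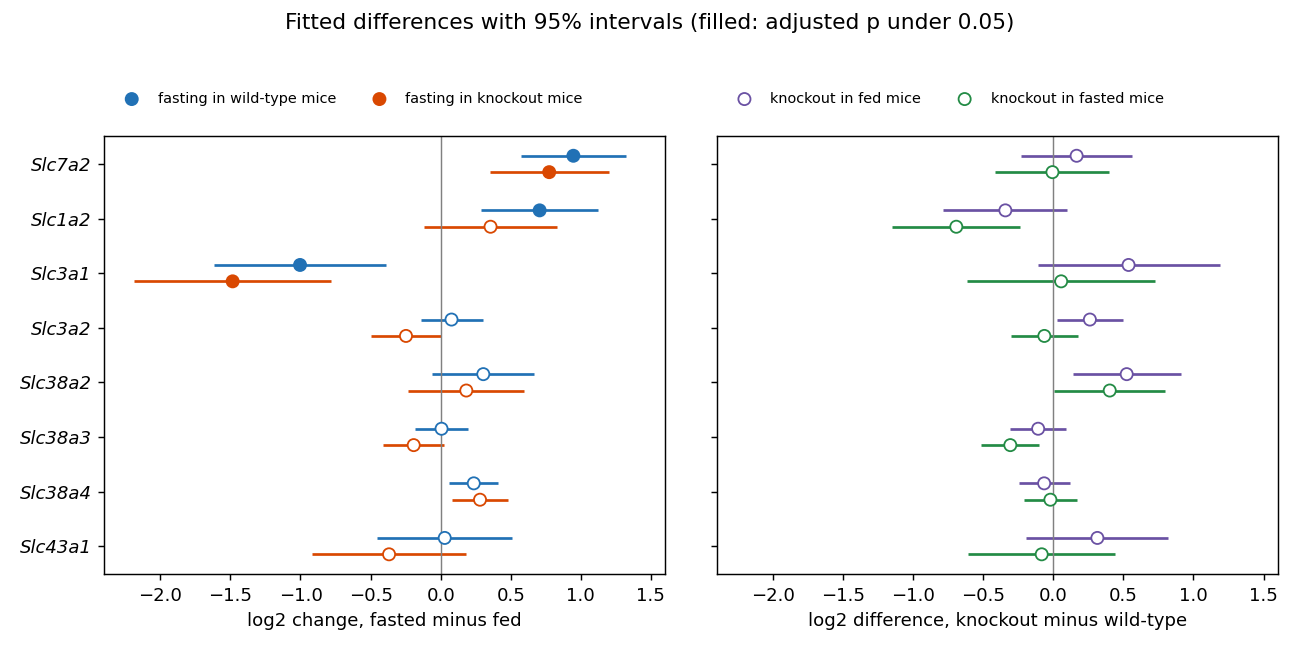
Fitted log2 differences of the 8 genes (horizontal axes) for fasting in each genotype (left) and for knockout minus wild-type in each feeding state (right), with 95% intervals. Filled points have an adjusted p under 0.05: Slc7a2 and Slc3a1 in both genotypes and Slc1a2 in wild-type mice for fasting, and no gene for genotype.

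Fed and fasted groups of wild-type mice did not overlap for 2 of the 8 genes (Slc7a2 and Slc3a1), where 12.2% of all genes did not. In knockout mice this held for 4 of the 8 (Slc7a2, Slc1a2, Slc3a1 and Slc38a4), beside 13.2% of all genes. The difference between the fasting responses of the genotypes was tested directly and passed for none of the 8 genes (0.0100% of all genes passed), and no member had an unadjusted p under 0.05 there (12.2% of all genes did). Its largest values were -0.48 ± 0.44 for Slc3a1 (95% interval -1.42 to 0.45), -0.40 ± 0.34 for Slc43a1 (-1.13 to 0.33) and -0.35 ± 0.30 for Slc1a2 (-0.98 to 0.28). For Slc7a2 it was -0.17 ± 0.27 (-0.74 to 0.39). Without fed knockout mice 1 and 4 the differences were -0.05 for Slc3a1, -0.09 for Slc43a1, -0.33 for Slc1a2 and -0.41 for Slc7a2. With all mice, the intervals of these genes include both signs and reach further on the negative side. Slc3a2 had the smallest unadjusted p of the 8 (limma, 0.0566), with a difference of -0.32 ± 0.16 (-0.66 to 0.01). The difference was negative for 7 of the 8 genes, and the share of negative differences over all genes was not counted. The median over the 8 was -0.26, beside -0.03 over all genes and -0.19 over 26 other plasma membrane amino acid transporters.

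Between genotypes, none of the 8 genes passed in fed mice (0.677% of all genes did), in fasted mice (0.537%) or in the mean of both feeding states (1.55%, of which 0.963% up and 0.587% down). At an unadjusted p under 0.05 the counts were 2, 3 and 3 of 8, beside 13.2%, 10.4% and 10.8% of all genes. Slc38a2 had the largest positive mean difference. It was higher in knockout mice by 0.52 ± 0.18 in fed mice (adjusted p = 0.211), where 3 of 4 knockout mice lay above all wild-type mice, and by 0.40 ± 0.19 in fasted mice (adjusted p = 0.472). The mean difference was 0.46 ± 0.13 (adjusted p = 0.104; 95% interval 0.19 to 0.74). It passed with array weights (0.54, adjusted p = 0.0237) and without fasted wild-type mouse 5, fed knockout mouse 2 or fasted knockout mouse 1 (0.52 to 0.57, adjusted p = 0.0282 to 0.0476). Without fed knockout mice 1 and 4 it was 0.40 (adjusted p = 0.353). The fed knockout mice that were high in Slc38a2 (1, 3 and 4) were those with the high acute phase sums, and mouse 2, at 8.76, had an acute phase sum of 23221. The macrophage sum was high in all 4, mouse 2 included (1500). The part of either list in the Slc38a2 values was not tested.

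Slc1a2 had the largest negative one. All 4 fed knockout mice lay below all fed wild-type mice, the only gene of the 8 whose groups did not overlap in fed mice (6.70% of all genes), with a difference of -0.34 ± 0.21 (adjusted p = 0.513). In fasted mice the difference was -0.69 ± 0.22 (adjusted p = 0.221; 95% interval -1.15 to -0.24). It rested on how fasted wild-type mouse 1 was treated. Without that mouse the fasted difference was -0.90 (adjusted p = 0.00887) and the mean of both states -0.62 (adjusted p = 0.0037), and with it the mean was -0.52 ± 0.15 (adjusted p = 0.117).

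Slc38a3 was also lower in knockout mice after fasting. The 3 fasted knockout mice, at 10.44 to 10.53, lay below all 5 fasted wild-type mice, at 10.65 to 11.01 (8.25% of all genes had groups apart here), but the difference of -0.31 ± 0.10 did not pass (adjusted p = 0.233). In fed mice the knockout difference was 0.26 ± 0.11 for Slc3a2 (adjusted p = 0.313), 0.54 ± 0.31 for Slc3a1 (adjusted p = 0.479) and 0.31 ± 0.24 for Slc43a1 (adjusted p = 0.611). Without fed knockout mice 1 and 4 these were 0.14 (adjusted p = 0.752), 0.10 (adjusted p = 0.936) and 0.01 (adjusted p = 0.996). Slc3a2 had the same order of fed knockout mice as Slc3a1 (4, 3, 1, 2), with mouse 2, the lowest in acute phase sum, lowest in both, and the part of the acute phase was not tested. Slc7a2 differed by 0.17 ± 0.19 in fed mice, or -0.07 without fed wild-type mouse 1 and 0.40 without fed knockout mice 1 and 4, and by -0.01 ± 0.19 in fasted mice (95% interval -0.41 to 0.40), Slc38a4 by -0.07 ± 0.09 in fed and -0.02 ± 0.09 in fasted mice, and Slc43a1 by -0.08 ± 0.25 in fasted mice.

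Among 26 other amino acid transporters of the plasma membrane, 12 were above the dim limit. With fasting 1 rose and 2 fell in wild-type mice, and none rose and 3 fell in knockout mice. The neutral amino acid carrier Slc1a4 (ASCT1) fell by 0.62 in wild-type (adjusted p = 0.0367) and 0.87 in knockout mice (adjusted p = 0.0221) on the log2 scale. Its mean level was low, at 3.55, and its wild-type groups overlapped. Leaving out single mice ended its wild-type call in 7 of 16 fits and its knockout call in 4. The knockout call was also lost without fed knockout mice 1 and 4 (adjusted p = 0.111). Slc7a7 fell in both genotypes as given above. Slc6a13, a GABA and taurine carrier of hepatocytes, fell in knockout mice (-0.53 ± 0.13, adjusted p = 0.0257) and had -0.23 in wild-type mice (adjusted p = 0.236). The single rise, of Slc6a20a by 0.28 ± 0.09 in wild-type mice, came from a dim gene with a mean of 2.77. Between genotypes none of the 26 passed. Their median fasting change was 0.12 in wild-type and -0.08 in knockout mice.

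**Figure D4:**
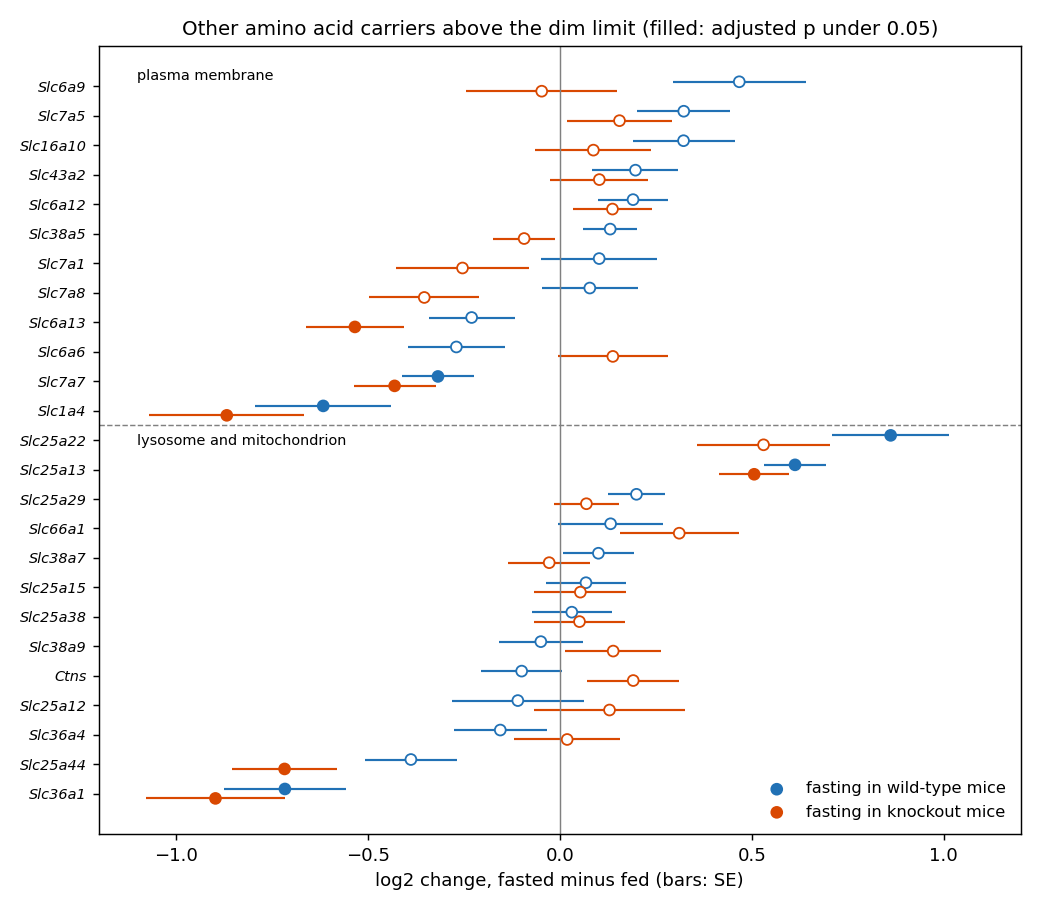
Log2 fasting change (horizontal axis, points with SE bars) in wild-type and knockout mice of the other amino acid carriers above the dim limit, 12 of the plasma membrane (above the dashed line) and 13 of lysosome or mitochondrion (below it). Filled points have an adjusted p under 0.05: Slc1a4, Slc7a7, Slc25a13 and Slc36a1 in both genotypes, Slc25a22 in wild-type and Slc6a13 and Slc25a44 in knockout mice.

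Carriers inside the cell moved in both directions. Of 14 lysosomal and mitochondrial amino acid carriers, 2 rose and 1 fell with fasting in wild-type mice, and 1 rose and 2 fell in knockout mice. Slc25a13 (citrin), the mitochondrial aspartate and glutamate exchanger that feeds the urea cycle, rose by 0.61 ± 0.08 in wild-type (adjusted p = 0.000135) and 0.51 ± 0.09 in knockout mice (adjusted p = 0.00506). Slc25a22, a mitochondrial glutamate carrier, rose in wild-type mice (0.86 ± 0.15, adjusted p = 0.00163), and its difference in knockout mice was 0.53 (adjusted p = 0.117). Slc36a1, a proton-coupled carrier of small amino acids in lysosomes, fell by 0.72 and 0.90. Slc25a44, the mitochondrial carrier of branched-chain amino acids, fell in knockout mice (-0.72 ± 0.14, adjusted p = 0.00729) and had -0.39 in wild-type mice (adjusted p = 0.0546). Between genotypes none of the 14 passed.

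The response to amino acid shortage, driven by the factor ATF4, is a known inducer of Slc38a2, Slc3a2 and Slc7a5 in many cells. Of 26 measured genes of that response, 4 rose and 2 fell with fasting in wild-type mice and 2 rose and 2 fell in knockout mice. The pseudokinase Trib3 rose by 1.12 ± 0.18 in wild-type (adjusted p = 0.000871) and 0.99 ± 0.21 in knockout mice (adjusted p = 0.0126), the mTORC1 inhibitor Ddit4 by 1.08 ± 0.29 and the transcription factor Cebpb by 0.99 ± 0.18 in wild-type mice, and the leucine sensor Sesn2 by 0.58 ± 0.14 in wild-type (adjusted p = 0.0125) and 0.77 ± 0.16 in knockout mice (adjusted p = 0.0099). The tRNA synthetases Cars and Nars fell in both genotypes, Cars by 0.65 and 0.69 and Nars by 0.37 and 0.47. Atf4 itself had -0.37 in wild-type (adjusted p = 0.105) and -0.14 in knockout mice (adjusted p = 0.76). Between genotypes none of the 26 passed in fed or in fasted mice, and 1 was lower in the mean knockout effect, the lipoprotein receptor Vldlr (-0.83 ± 0.17, adjusted p = 0.0212). That call was lost without fed knockout mice 1 and 4 (-0.84, adjusted p = 0.0716) and without fasted knockout mouse 2 or 3. The list's median change with fasting was -0.01 in wild-type and -0.09 in knockout mice.

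Of 18 measured enzymes that act on the amino acids these carriers bring in, 4 rose and 2 fell with fasting in wild-type mice and 3 rose in knockout mice. The urea cycle enzyme Asl rose by 1.10 ± 0.12 and 0.89 ± 0.14, and the alanine transaminase Gpt2 by 0.85 ± 0.17 and 0.72 ± 0.19. Oat, which turns ornithine towards glutamate, rose in wild-type mice by 0.94 ± 0.14, and the tryptophan dioxygenase Tdo2 in knockout mice by 0.45 ± 0.10. The urea cycle enzyme Otc fell in wild-type mice by 0.38 ± 0.10 and Dbt, of branched-chain keto acid breakdown, by 0.35 ± 0.10. A single enzyme of the list differed by genotype: Bckdhb, another subunit of the branched-chain complex, was lower in fed knockout mice by 0.66 ± 0.10 on the log2 scale (adjusted p = 0.00544). Of the calls named in these 4 lists, 10 of 16 in wild-type and 3 of 13 in knockout mice held when any 1 mouse was left out, and 14 of 16 and 3 of 13 held without fed knockout mice 1 and 4.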

How the data were processed

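Affymetrix whole-transcript arrays gave 1 value per probe set and mouse. The authors deposited normalized intensity values made with RMA (per the submitters' processing notes); the values are linear (the medians of the arrays lay between 8.08 and 8.61) and log2 was taken here. Software version and genome build: not given in the sources used here. Of 35519 probe sets, 21780 had 1 gene symbol, and the brightest probe set stood for each of 19935 genes. No 2 arrays were identical. A model with 4 group means over the 16 arrays was fitted in R 4.3.3 by lmFit and eBayes of limma 3.58.1 (12 residual and 4.55 prior degrees of freedom), two-sided, with Benjamini-Hochberg adjustment over all genes per contrast. Intervals use that fit's standard error. The fit was tested on simulated data. The number of arrays limits the precision.

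The transporters and the gene lists were chosen with earlier results of these data known. Of the other genes, up to 3 called genes each way per list and contrast were named, and the 3 genes most correlated with each called transporter; Slc7a5, Slc7a9, the single values of Pck1 and of pericentral genes, and Atf4 were chosen after their values were seen. Mice with the same replicate number are not said to be paired. The alternatives tried were quantile normalization, median centring, leaving out dim genes, all probe sets, the median of probe sets, array weights, robust variance with an intensity trend, only the compared groups, a replicate block, log2(intensity + 1), and leaving out each mouse or fed knockout mice 1 and 4.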

Additional observations from a re-analysis of the deposited data

Results flagged for a closer look

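Of 24 sets of values tested (8 genes in the 3 groups of 4 or 5 mice), 2 held a mouse whose gap to the next was large for its group; chance gives about 1 in 20. Slc7a2 in fed wild-type mouse 1 was at 8.39, against 9.31 to 9.37 in the other 3 mice of that group. Slc38a2 in fed wild-type mouse 4 was at 8.59, against 8.73 to 8.76 in the other 3, a gap that is small in absolute terms. No transporter differed in its fasting response between genotypes by the test of that difference.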

How the results depend on the processing

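The count of changed transporters under fasting in wild-type mice was 3, and 1 with the replicate block. A fit of the compared groups alone lost the call of Slc1a2 (adjusted p = 0.0724). An intensity trend with robust variance lost that of Slc3a1 (adjusted p = 0.0815). In knockout mice the count was 2, and 1 in a fit of the compared groups alone and 0 without fed knockout mice 1 and 4. Quantile normalization added a call there, of Slc38a4 (adjusted p = 0.0456). For the mean knockout effect the count was 0, and 1 with array weights and 1 with the replicate block, Slc38a2 in each. Leaving out each mouse gave 1 to 3 and 0 to 2 for fasting in wild-type and knockout mice, 0 to 1 for knockout in fasted mice and for the mean knockout effect, and 0 in fed mice and for the difference between responses. The block took the wild-type calls of Slc1a2 (0.64, adjusted p = 0.0923) and Slc3a1 (-1.0, adjusted p = 0.0768) and changed no other call of a transporter but that of Slc38a2 for the mean knockout effect (0.53, adjusted p = 0.0499). Of 21 pairs of mice with the same number, 6 deviated together (r over 0.1, range -0.25 to 0.23), and 4 of 16 mice correlated best with their own number. Pairs with different numbers ran from -0.34 to 0.29. Their share over 0.1 was not set beside these counts, so the counts cannot show whether same-numbered mice had a batch in common. The 5 fasting calls (Slc7a2, Slc1a2 and Slc3a1 in wild-type and Slc7a2 and Slc3a1 in knockout mice) kept their sign under every alternative run; of the 43 differences that were not called, 14 changed sign under at least 1. Over all genes, counts moved by over 1.5 times as follows: fasting in knockout mice from 732 to 401 in a fit of these groups alone and 218 without fed knockout mice 1 and 4; knockout in fed mice from 135 to 76 and 51 likewise; knockout in fasted mice from 107 to 185 with array weights; the mean knockout effect from 309 to 171 without fed knockout mice 1 and 4; and the difference between responses from 2 to 1 without dim genes, with an intensity trend, with the block and without those mice. Leaving out single mice gave 1199 to 2006 and 330 to 951 for fasting in wild-type (1838 with all) and knockout mice, 59 to 274 and 21 to 126 for knockout in fed and fasted mice, 175 to 359 for the mean effect and 0 to 8 for the difference. With 3 to 5 mice a group, the standard errors of the 8 genes' fasting differences ran from 0.08 (Slc38a4) to 0.33 (Slc3a1) on the log2 scale.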

Other observations

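Asns, the asparagine synthetase gene of the amino acid shortage response, was chosen after its values were seen. It was at 8.15 in fasted wild-type mouse 1, 7.95 in fasted knockout mouse 2 and 7.51 in fed knockout mouse 4, and at 4.21 to 6.03 in the other 13 mice. Its fasting difference was 1.01 ± 0.68 in wild-type and 0.68 ± 0.78 in knockout mice and did not pass (limma adjusted p = 0.406 and 0.77). In the same 3 mice Slc38a2 was at 8.82, 9.47 and 9.31.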
